A study of Komagataella phaffii with 18 samples.

Results

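A set of 283 transcribed features of the yeast Komagataella phaffii was lower in wild type than in both heterothallic strains after 24 h in acetate medium. The 283 members came from 5341 annotated features (5.30%) and from 3725 features that passed the filters of the rule (7.60%). Those filters asked for a feature ID on chromosomes 1 to 4 with a serial number of at least 75, a length over 300 bases, and at least 20 CPM (counts scaled by the sum of the library's counts) in both heterothallic strains in acetate. A member also had a ratio of at least 2 for each heterothallic strain over wild type in acetate, computed on the mean CPM of 3 libraries plus 5. The 2 heterothallic strains had to lie within a ratio of 0.5 to 2 of each other, a limit that removed 0 features. The acetate levels of the 3 strains therefore chose the members and are described here with no test.

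Polyadenylated RNA of strain CBS2612 was sequenced in 18 libraries, which the labels place in 6 groups of 3. The strains were wild type, an a-type strain with the genotype label dic1-2{delta}(a) and an α-type strain labelled dic1-2{delta}(alpha), called here the a strain and the α strain. Each was sampled in exponential growth in the rich medium YPD. The same cultures were sampled again after 24 h in acetate, a medium used to switch on mating genes, so medium, time and growth phase cannot be told apart. The labels do not say whether the 3 samples of a group were separate cultures, so p-values rest on a spread between samples that could be technical. Each heterothallic group is 1 labelled strain of its mating type, and the labels do not give how the strains were made.

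Komagataella phaffii is a methylotrophic yeast that normally grows as a haploid. Wild-type cells are homothallic: a cell can switch between mating types by inverting a stretch of DNA that carries the mating-type genes, so a culture can hold both types and its cells can mate with each other and sporulate. Heterothallic cells keep 1 mating type and do not find a partner in a culture of their own strain. Nutrient limitation is the known trigger of mating and sporulation in this yeast. The feature IDs carry no gene names, and 0 of the 5341 matched the reference gene table at hand, which covers another strain (GS115), so members are given by ID with no function, and the mating-type genes and sporulation genes were not identified here.

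Library totals were 234044 to 309362 counts in YPD and 637339 to 765524 in acetate. At these depths 3 counts, the limit that a count of 0 allows, correspond to up to 12.8 CPM in YPD and 4.71 CPM in acetate, for counting error only. The biological coefficient of variation fitted by edgeR, a spread beyond counting error, was 32.0% to 39.4% among the 3 libraries of a strain in YPD. In acetate it was 11.4% to 13.6%, so libraries of a group lay closer together there. Among the 283 members, 18 had 0 counts in at least 1 YPD library.

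The scale of the libraries moved with the strain difference. Over the 3725 features that passed the filters, the median acetate ratio was 1.33 for a-type over wild type and 1.30 for α-type over wild type (0.41 and 0.38 on the log2 scale), against 2.47 and 2.34 over the members. TMM, a scaling that centres most features between libraries, gave mean factors of 0.816 in acetate for wild type, 1.06 for a-type and 1.04 for α-type. On TMM-scaled CPM the 2 median ratios of the filtered features were 1.05 and 1.04, those of the members were 1.99 and 1.89, and 83 of the 283 members still met the rule. With TMM the smaller of the 2 ratios was at least 1.56 in every member. The mirror image of the rule, which asks for wild type at least 2 times higher than both strains, gave 160 features on the library sums and 254 with TMM. Single wild-type acetate libraries also set part of the membership. Without wild-type acetate replicate 1 the rule took 469 features, among them 265 of the 283. Without wild-type acetate replicate 2 it took 246, among them 202 of the 283. Without wild-type acetate replicate 3 it took 282, among them 224 of the 283.

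The limit of the rule cuts the range of the ratios from below. The smaller of the 2 ratios was between 2 and 2.5 in 206 members, between 2.5 and 3 in 54, between 3 and 4 in 20 and at least 4 in 3. The highest ratios were 7.44 for a-type and 6.65 for α-type. All 6 heterothallic acetate libraries lay above all 3 wild-type acetate libraries in 269 members (95.1%), where the same held for 33.4% of the 3725 filtered features. The rule chose the members on these same libraries, so it largely sets that order. The a-type mean was above the α-type mean in 196 members (69.3%) and in 55.7% of the filtered features. Median levels of the members in acetate were 33.2 CPM in wild type, 93.3 CPM in the a strain and 93.1 CPM in the α strain. In YPD the medians were 68.5, 80.5 and 68.6 CPM, so wild type in acetate had the lowest of the 6 group medians.

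As a share of all counts, the members took about the same part of every group except wild type in acetate. In YPD they held 6.09%, 7.14% and 6.92% of the counts of the 3 wild-type libraries, 6.76%, 7.04% and 6.35% in the a strain and 6.23%, 7.17% and 5.72% in the α strain. In acetate the share was 2.84%, 2.09% and 2.32% in wild type, 6.24%, 7.26% and 7.02% in the a strain and 6.30%, 6.42% and 6.51% in the α strain. The 3 wild-type acetate libraries lay below the other 15, and the ranges of the remaining 5 groups overlapped one another. Within acetate, the lower share of wild type follows from the rule, which chose the members on these levels. The filtered features outside the set held a mean of 81.7% to 81.9% of counts in the 3 YPD groups, 87.7% in wild type in acetate, and 83.3% and 83.9% in the a strain and α-type in acetate. In these bulk samples, fewer cells of a type and less RNA per cell cannot be told apart.

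**Figure D1:**
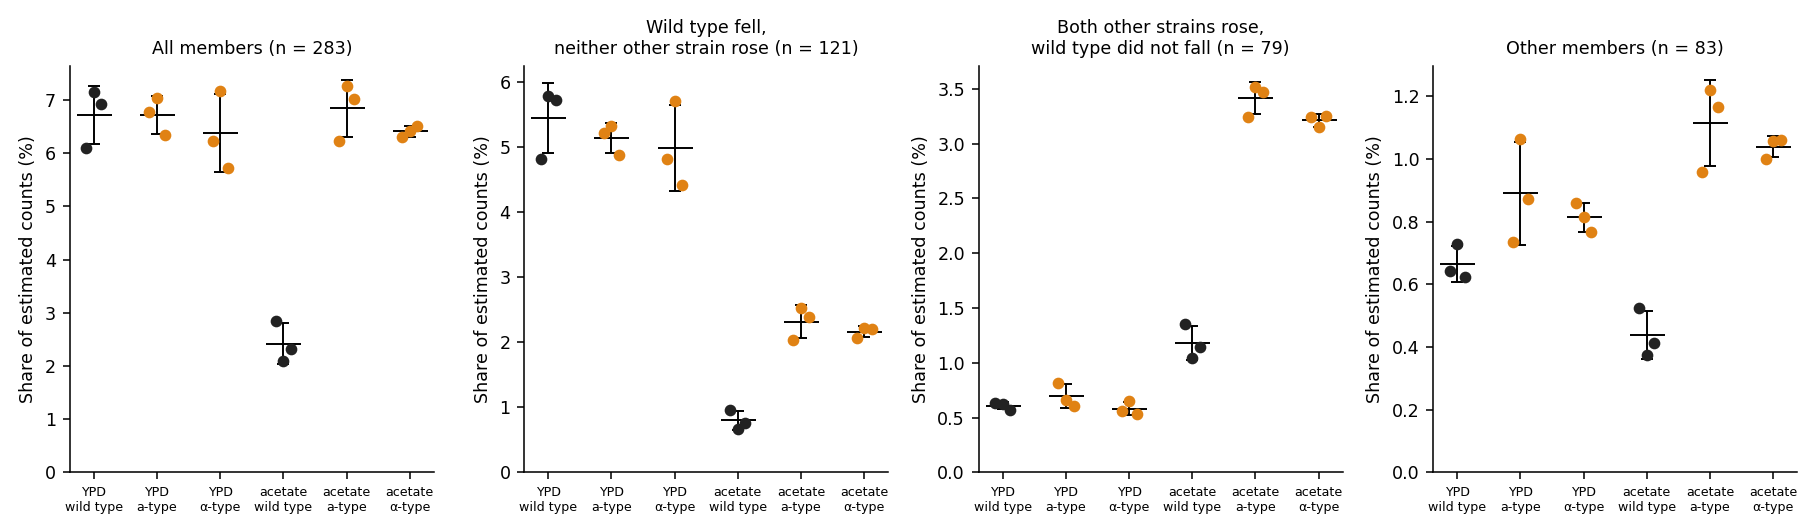
Percent of a library's counts (y axis, linear from 0) held by all 283 members and by the 3 classes defined by the medium comparisons, for each strain in YPD and acetate (x axis). Points are libraries, bars are the mean ± SD of 3 libraries, and the all-member panel shows wild type in acetate at 2.41% ± 0.383 with the other 5 group means between 6.37% and 6.84%. The place of wild type below the other strains in acetate is set by the rule.

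YPD libraries were not used by the rule, so they compare the same features between strains on values that did not choose the members. They come from the cultures that were later sampled in acetate, so they are not independent cultures. No member was called between strains in YPD. Of the 283 members, 228 had enough counts to be tested in the 9 YPD libraries with edgeR's quasi-likelihood test, and 0 passed a Benjamini-Hochberg adjusted p of 0.05 for a-type against wild type, α-type against wild type or a-type against α-type. Over all 3646 features tested, 0.0549%, 0.0274% and 0.0549% were called in the same comparisons. At an unadjusted p under 0.05 the counts were 8, 2 and 6 of the 228 members (3.51%, 0.877% and 2.63%), where 5.60%, 3.21% and 1.34% of all tested features passed. DESeq2 called 0 members in each comparison, and so did edgeR with the 18 libraries fitted together. The median log2 difference of the tested members was 0.11 for a-type over wild type and 0.02 for α-type over wild type, against 0.05 and 0.03 for the tested features that met the filters.

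The acetate direction was seen in YPD about as often among the members as among the filtered features. Both heterothallic means were above the wild-type mean in YPD in 143 members (50.5%), and in 49.1% of the filtered features. Both were below it in 67 members (23.7%), and in 24.1% of the filtered features. All 6 heterothallic YPD libraries lay above the 3 wild-type ones in 8 members (2.83%), beside 2.58% of the filtered features. All 6 lay below in 1 member (0.353%), beside 0.591%. With the coefficients of variation given above for YPD, an absent call does not show that the strains had equal levels. In simulated data the YPD fit called 8% of 2-fold changes for a-type against wild type.

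**Figure D2:**
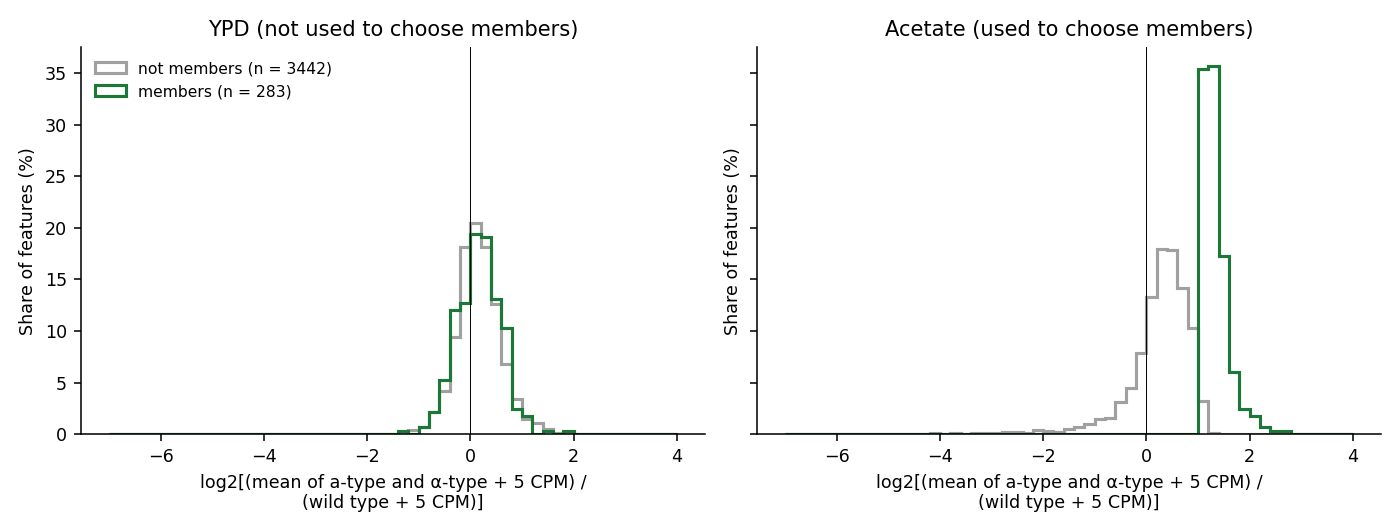
Distribution of the log2 ratio of the heterothallic mean over wild type (x axis, each on CPM plus 5) in YPD and in acetate, with the percent of features on the y axis, for the 283 members and the 3442 filtered features outside the set. In YPD the medians were 0.17 for members and 0.15 for the rest, and in acetate 1.26 and 0.36, where the members' place is set by the rule.

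Whether wild type fell from YPD or the other strains rose was read from the comparison of acetate with YPD within each strain. All 283 members were among the 4783 features tested in a fit of the 18 libraries. Because the acetate libraries chose the members, their calls describe the set and support nothing by themselves. In wild type 122 members fell and 38 rose, where 23.3% and 25.6% of all tested features did. In the a strain 56 members fell and 86 rose, beside 19.2% and 20.3% of all tested features. In α-type 53 members fell and 88 rose, beside 19.6% and 22.3%. Among the 3725 filtered features alone, 21.9% fell and 28.6% rose in wild type, 18.4% and 23.9% in the a strain, and 18.8% and 25.9% in the α strain. The median log2 fold change of the members was -0.76 in wild type, 0.25 in the a strain and 0.22 in the α strain, and that of all tested features 0.03, -0.01 and 0.04.

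The calls divided the members into a class in which wild type fell, a class in which the other strains rose, and a remainder. Wild type fell and neither other strain rose in 121 members (42.8%, beside 21.9% of the filtered features). This is called below the class in which wild type fell. It leaves out 1 member that fell in wild type and rose in the α strain. Both other strains rose and wild type did not fall in 79 members (27.9%, beside 19.9%). No member had a fall in wild type together with a rise in both other strains, and 1 of the 3725 filtered features did. The remaining 83 members (29.3%) had no such pair of calls. On TMM-scaled CPM the rule was still met by 40 of the 121, 32 of the 79 and 11 of these 83. In 268 of the 283 members (94.7%) both heterothallic log2 fold changes were above that of wild type, beside 42.0% of the filtered features, an order that the rule largely sets through the acetate levels. In 6 members (2.12%) both were below it, beside 37.9%.

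**Figure D3:**
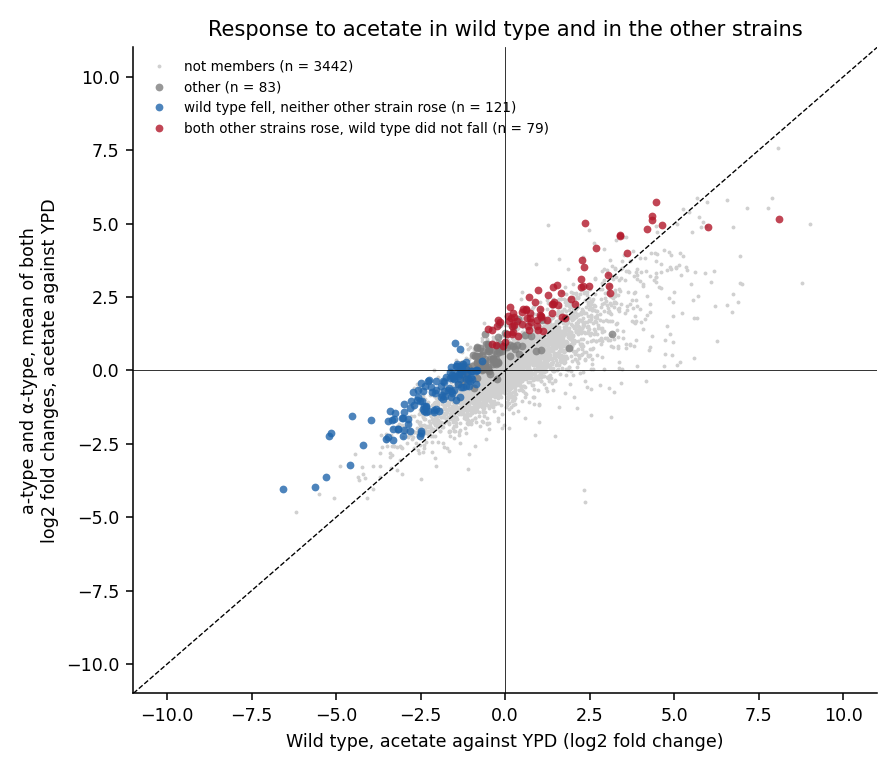
Log2 fold change of acetate over YPD in wild type (x axis) and the mean of the a-type and α-type log2 fold changes (y axis) for the 283 members, coloured by class; on the dashed diagonal the responses are equal. The point farthest right is PP7435_Chr2-0218, which had 0 counts in the 3 wild-type YPD libraries, so its fitted wild-type value is not a measured fold.

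Of the 121 members in which wild type fell and neither other strain rose, 57 fell in wild type and had no call in the other strains. A further 45 fell in all 3 strains, and 19 fell in wild type and 1 other strain (11 with a-type, 8 with α-type). The first of these patterns held 20.1% of the members and 5.56% of the filtered features. The second held 15.9% and 12.1%, and the third 6.71% and 4.19%. Among the 57, the median log2 fold change was -1.40 in wild type, -0.22 in the a strain and -0.15 in the α strain. Among the 45 that fell in every strain, the medians were -3.00, -1.64 and -1.70, with the lowest in wild type. The 121 members took 5.44% ± 0.541 of wild-type counts in YPD and 0.798% ± 0.150 in acetate (SD, n = 3). In the a strain their share went from 5.13% ± 0.233 to 2.31% ± 0.253, and in the α strain from 4.98% ± 0.660 to 2.16% ± 0.0854. The class median in YPD was 152 CPM in wild type, 192 CPM in the a strain and 158 CPM in the α strain; in acetate it was 31.2, 88.9 and 83.1 CPM.

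PP7435_Chr1-0292 had the highest acetate level of this class. Its CPM in wild type were 1256, 2151 and 1162 in YPD and 776, 496 and 629 in acetate. In the a strain they were 1325, 2499 and 2109 in YPD and 1625, 2109 and 1881 in acetate, and in the α strain 1834, 2429 and 1187 in YPD and 1772, 1819.7 and 1818 in acetate. The wild-type acetate libraries lay below all the others, while the YPD and acetate libraries of both heterothallic strains overlapped. Its log2 fold change was -1.02 ± 0.27 (SE; adjusted p = 0.0027, edgeR) in wild type, -0.01 ± 0.26 in the a strain (adjusted p = 0.973) and -0.01 ± 0.26 in the α strain (adjusted p = 0.975).

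PP7435_Chr1-0747 showed the same pattern on a deeper fall. Wild type had 2012, 2171 and 3901 CPM in YPD and 591, 379 and 444 in acetate (log2 -2.29 ± 0.31, adjusted p = 1.2e-06 by edgeR). The a-type libraries had 714, 1781 and 1988 CPM in YPD and 966, 1473 and 1306 in acetate, and the α-type libraries 1703, 1881 and 1769 in YPD and 1136, 1351 and 1167 in acetate. Neither heterothallic strain had a call, with log2 values of -0.20 in the a strain and -0.55 in the α strain.

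PP7435_Chr2-0821 and PP7435_Chr1-0374 fell in wild type with a smaller and less certain change in the other strains. PP7435_Chr2-0821 had 1484, 2014 and 3935 CPM in YPD and 492, 238 and 347 in acetate in wild type (log2 -2.57 ± 0.31). Its acetate levels were 987, 1376 and 1346 CPM in the a strain and 1101, 1220.1 and 1212 in the α strain. PP7435_Chr1-0374 had 1515, 1468 and 3303 CPM in YPD and 457, 270.3 and 273 in acetate in wild type (log2 -2.43 ± 0.29), with 759, 1047 and 1024 in the a strain and 837, 977 and 947 in the α strain in acetate. In both features the 3 wild-type acetate libraries lay below all 6 heterothallic ones. By edgeR, PP7435_Chr2-0821 fell in the a strain (log2 -0.74, adjusted p = 0.0476) and had -0.61 in the α strain (adjusted p = 0.0943), a call in the a strain that was lost without YPD a-type replicate 2 and without each acetate a-type library. With DESeq2 that call had an adjusted p of 0.0592, and with DESeq2 size factors in edgeR 0.0517. PP7435_Chr1-0374 fell in the α strain (log2 -0.71, adjusted p = 0.0424 by edgeR) and had -0.69 in the a strain (adjusted p = 0.0522), and that α-type call was lost without YPD α-type replicate 2 or 3 and without each acetate α-type library. It was also lost with DESeq2 (adjusted p = 0.0518) and with upper-quartile scaling in edgeR (adjusted p = 0.0735).

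The features with the largest ratios in this class fell in all 3 strains. PP7435_Chr4-0289 had 2888, 4612 and 2542 CPM in YPD in wild type and 23.2, 33.8 and 29.8 in acetate. It had 1841, 779 and 3165 in YPD and 163, 146 and 159 in acetate in the a strain, and 2834, 4356 and 872 in YPD and 103, 114 and 138 in acetate in the α strain. The YPD libraries of the strains overlapped and spread widely, while the acetate levels of the 3 strains did not overlap. The log2 fold changes were -6.58 ± 0.56 in wild type, -3.60 ± 0.47 in the a strain and -4.51 ± 0.49 in the α strain; the a-type value was -3.02 without YPD a-type replicate 3. PP7435_Chr1-1074 had 75.03, 45.05 and 64.3 CPM in wild type in acetate, 396, 286 and 212 in the a strain and 252, 261 and 259 in the α strain, from YPD means of 748, 924 and 888. PP7435_Chr2-0208, 312 bases long and so close to the length limit, had the highest smaller ratio of the set. It stood at 7.8, 4.56 and 1.96 CPM in wild type in acetate, 10.2 counts over the 3 libraries, beside 60.2, 65.2 and 63.8 in the a strain and 62.8, 52.5 and 64.8 in the α strain. It was also the only member with counts more than 0.01 away from whole numbers (chosen after its values were seen), which kallisto gives where a read matches more than 1 feature.

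Of the 79 members in which the other strains rose, 42 had no call in wild type and 37 rose in all 3 strains. The first pattern held 14.8% of the members and 3.41% of the filtered features; the second held 13.1% and 16.5%. The 42 had median log2 fold changes of 0.35 in wild type, 1.57 in the a strain and 1.61 in the α strain. The 37 had medians of 2.27, 2.89 and 2.97. The class took 0.609% ± 0.0332 of wild-type counts in YPD and 1.18% ± 0.155 in acetate (SD, n = 3). In the a strain the share went from 0.696% ± 0.111 to 3.41% ± 0.147, and in the α strain from 0.580% ± 0.0603 to 3.21% ± 0.0580. Class medians in YPD were 35.7 CPM in wild type, 40.7 CPM in the a strain and 36.4 CPM in the α strain; in acetate they were 62.9, 207 and 176 CPM.

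PP7435_Chr4-0387 had the highest acetate level of all 283 members in CPM. It stood at 80.6, 61.5 and 42.7 CPM in YPD and 1161, 1052 and 995 in acetate in wild type. In the a strain it had 109.6, 93.7 and 95.4 in YPD and 4266, 3961 and 3866 in acetate, and in the α strain 87.00, 129 and 119 in YPD and 3999, 3588 and 4115 in acetate. All acetate libraries were above all YPD libraries, and the wild-type acetate libraries were below all 6 heterothallic ones. Its log2 fold change was 4.35 ± 0.25 (SE) in wild type, 5.40 ± 0.24 in the a strain and 5.13 ± 0.24 in the α strain, with edgeR adjusted p of 9.3e-13, 4.8e-14 and 4.5e-14.

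PP7435_Chr4-0738 followed the same course from a similar start. Wild type had 94.04, 68.3 and 64.1 CPM in YPD and 707, 670.1 and 629 in acetate, a-type 77.8, 93.7 and 74.2 in YPD and 2225, 2199 and 2256 in acetate, and α-type 60.2, 171 and 80.3 in YPD and 2344, 1783 and 2483 in acetate. Its log2 fold changes were 3.39, 4.82 and 4.42. Per length, as the deposited TPM, it was above PP7435_Chr4-0387 in acetate: 3471 ± 155 against 1783 ± 69.2 TPM in the a strain, and 1005 ± 57.01 against 441 ± 28.9 TPM in wild type (SD, n = 3).

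PP7435_Chr2-0090 and PP7435_Chr3-0169 completed the 4 highest of this class, and neither met the rule on the TMM scale. PP7435_Chr2-0090 had 774, 746 and 745 CPM in wild type in acetate, 2381, 1972 and 2022 in the a strain and 1744, 1638 and 1695 in the α strain. Its YPD means were 284 ± 31.5, 298 ± 18.4 and 325 ± 30.4 CPM (SD, n = 3), and it rose in all 3 strains by log2 1.66, 2.89 and 2.39. PP7435_Chr3-0169 had 791, 739 and 889.6 CPM in wild type in acetate, 1980.3, 1871 and 1686 in the a strain and 1920.2, 1547 and 1989 in the α strain. Its log2 rise was 4.62 in wild type, 4.42 in the a strain and 5.51 in the α strain, so the wild-type response was not the smallest of the 3. Its a-type YPD libraries, at 109.6, 100.2 and 60.04 CPM, lay above the wild-type ones, at 47.02, 30.7 and 38.5 CPM.

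**Figure D4:**
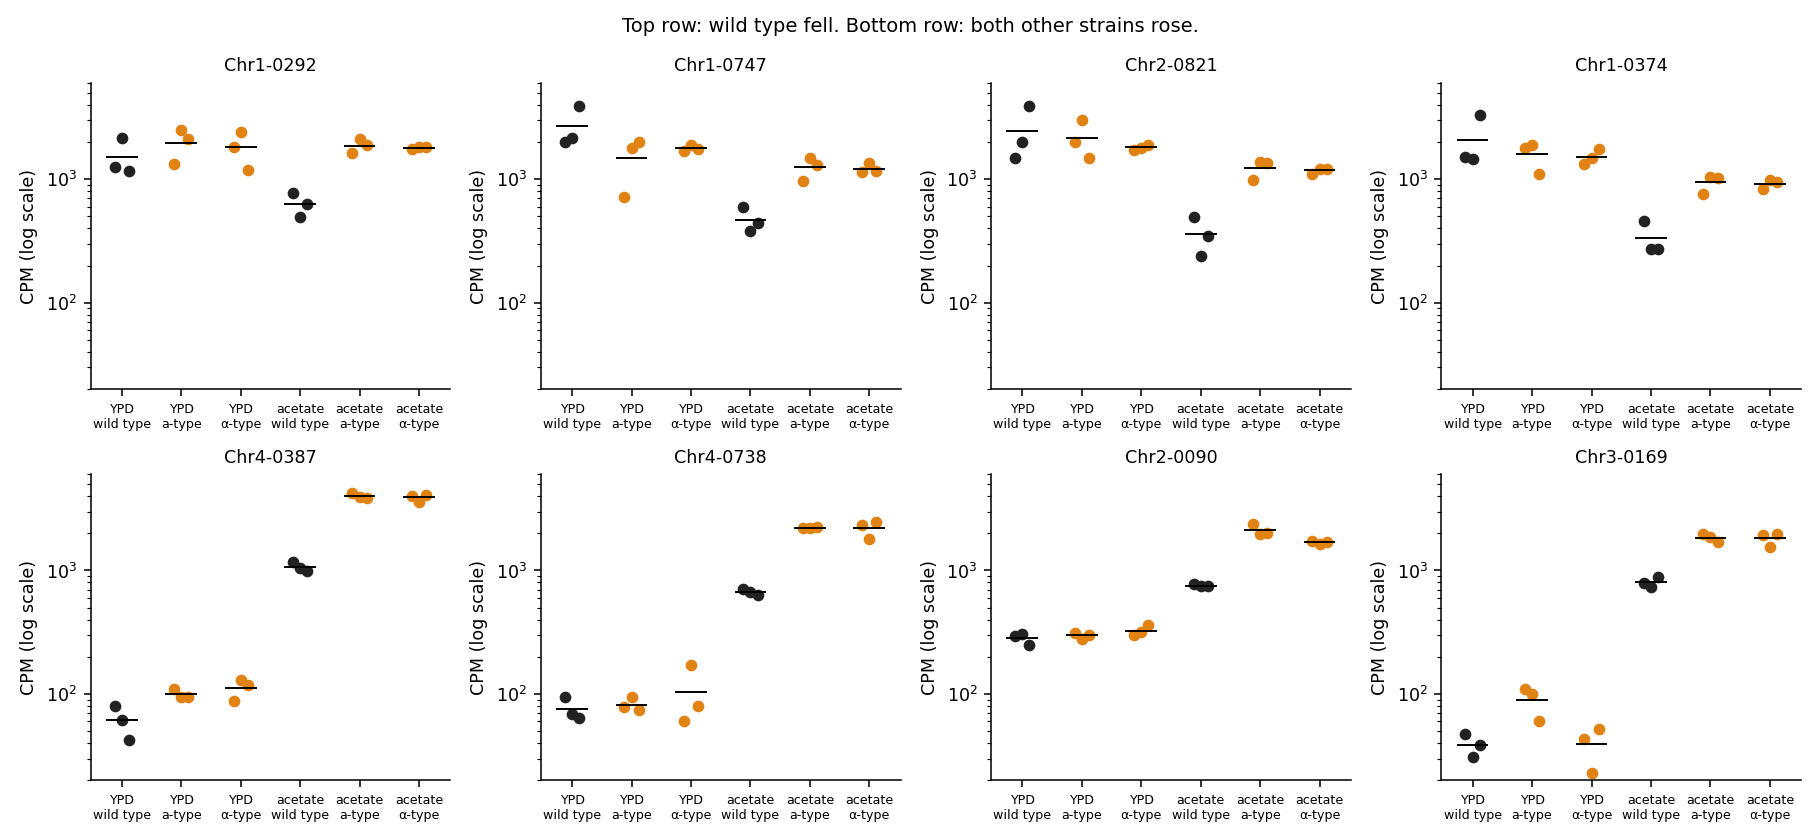
CPM on a log scale (y axis) in each library of the 3 strains in YPD and acetate (x axis). The top row holds the 4 members with the highest acetate level in the class where wild type fell. The bottom row holds the 4 highest of the class where the other strains rose. Points are libraries and horizontal lines are means of 3 libraries. In all 8 panels the wild-type acetate points lie below the heterothallic acetate points.

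Among the largest ratios of the set, PP7435_Chr1-1581 rose in both heterothallic strains with no call in wild type. Wild type had 107, 109 and 85.5 CPM in YPD and 106, 97.1 and 78.5 in acetate. The a-type libraries went from 141, 158 and 152 to 543, 508 and 638, and the α-type libraries from 73.6, 76.02 and 94.2 to 376, 474 and 391. The wild-type libraries of both media overlapped, and the heterothallic acetate libraries lay above all others. Its log2 fold changes were 0.15 ± 0.24 in wild type (adjusted p = 0.637, edgeR), 1.96 ± 0.23 in the a strain and 2.35 ± 0.24 in the α strain. PP7435_Chr3-0568 was alike, with 285, 229 and 98.3 CPM in YPD and 221, 165 and 162 in acetate in wild type, beside 745, 923 and 967 in the a strain and 669.7, 628 and 710.1 in the α strain in acetate.

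PP7435_Chr2-0632 and PP7435_Chr3-0690 were low in YPD. PP7435_Chr2-0632 had 0, 0 and 4.27 CPM in wild type, 0, 3.23 and 0 in the a strain and 10.04, 7.6 and 6.98 in the α strain in YPD. In acetate it had 28.6, 23.9 and 28.2 CPM in wild type, beside 235, 199 and 265 in the a strain and 157, 135 and 134 in the α strain. There a-type lay above α-type in every library, with ratios over wild type of 7.44 for a-type and 4.6 for α-type. No fold over YPD is given for it, since the wild-type and a-type YPD levels are near 1 count. PP7435_Chr3-0690 had 40.3, 3.41 and 4.27 CPM in YPD in wild type, 21.2, 51.7 and 7.06 in the a strain and 13.4, 34.2 and 13.96 in the α strain, levels of few counts. It had 54.6, 25.3 and 34.5 CPM in wild type in acetate, 148, 218 and 172 in the a strain and 197, 136 and 125 in the α strain. Its wild-type change of log2 1.42 ± 0.60 had an edgeR adjusted p of 0.054, with 2.79 and 2.91 in the other strains. Without YPD a-type replicate 2 the a-type value was 3.63.

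The remaining 83 members gave no clear answer to whether wild type fell or the others rose. Of these, 66 had no call in any strain (23.3% of the members, 34.9% of the filtered features). A further 15 rose in 1 heterothallic strain with no call in wild type (8 in the α strain, 7 in the a strain). That was 5.30% of the members and about the same share, 5.48%, of the filtered features. Another 1 rose in wild type alone (0.353%, beside 7.25% of the filtered features). The last 1 fell in wild type and rose in the α strain. A fall in wild type with a rise in 1 other strain held 0.353% of the members and 0.0268% of the filtered features. The 66 had median log2 fold changes of -0.57 in wild type, 0.39 in the a strain and 0.34 in the α strain. Over all 83, the median YPD level was 36.8 CPM in wild type, 48.0 CPM in the a strain and 41.0 CPM in the α strain, and the acetate medians were 22.5, 61.7 and 58.3 CPM.

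The most abundant of the remainder had wide YPD levels. PP7435_Chr1-3336 had 587, 605 and 512 CPM in wild type in acetate, 1680.4, 1329 and 1335 in the a strain and 1289.8, 1147 and 1250.0 in the α strain, with YPD libraries from 632 to 1459 CPM over the 3 strains. PP7435_Chr3-0996 had 77.8, 2344 and 1190.2 CPM in the a strain in YPD, wider than the 729, 923 and 869 CPM of the same strain in acetate. PP7435_Chr1-1522 had 21.2, 999 and 766 CPM in the a strain in YPD and 491, 926 and 953 in acetate. In wild type in acetate they had 480.2, 293 and 356 CPM and 318, 265 and 275 CPM, below all acetate libraries of the other strains. PP7435_Chr2-0410 rose in the α strain (log2 1.67 ± 0.53, adjusted p = 0.0133, edgeR), a call lost without YPD α-type replicate 1 or 3 and with a log2 value of 2.68 without replicate 2, while a-type had 1.27 (adjusted p = 0.0531).

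PP7435_Chr1-0884, chosen after its values were seen, was the only member with calls of opposite sign. On the TMM scale it did not meet the rule. It had 53.7, 51.2 and 34.2 CPM in YPD and 30.01, 16.9 and 18.8 in acetate in wild type. The a-type libraries had 35.3, 42.02 and 35.3 in YPD and 48.99, 50.02 and 65.9 in acetate, and the α-type libraries 26.8, 30.4 and 17.4 in YPD and 50.95, 53.6 and 42.2 in acetate. It fell in wild type (log2 -0.84 ± 0.35, adjusted p = 0.0498, edgeR) and rose in the α strain (0.98 ± 0.36, adjusted p = 0.0305), with 0.60 in the a strain (adjusted p = 0.151). Both calls were lost with DESeq2 (adjusted p = 0.0827 in wild type and 0.05005 in the α strain). The wild-type call was also lost without YPD wild-type replicate 1 or 2 and without acetate wild-type replicate 2 or 3. The α-type call was also lost without YPD α-type replicate 1 or 3 and without acetate α-type replicate 1 or 2.

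The edge of the set was not marked by a gap in the values. The members just inside the limit were PP7435_Chr1-0493, with ratios of 2.67 for a-type and 2.001 for α-type, PP7435_Chr2-0138, with 2.16 and 2.003, and PP7435_Chr2-0442, with 2.04 and 2.003. The features just outside were PP7435_Chr1-0927, with 2.30 for a-type and 1.999 for α-type, PP7435_Chr2-0248, with 2.02 and 1.998, and PP7435_Chr4-0223, with 1.996 and 2.06. In acetate PP7435_Chr1-0493 had 54.1 CPM in wild type and PP7435_Chr1-0927 had 37.4.

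The members were spread over the 4 chromosomes. They made up 94 of 1155 filtered features on chromosome 1 (8.14%), 66 of 959 on chromosome 2 (6.88%), 71 of 896 on chromosome 3 (7.92%) and 52 of 715 on chromosome 4 (7.27%). The class in which wild type fell had 39, 27, 32 and 23 members on chromosomes 1 to 4, and the class in which the others rose had 28, 18, 19 and 14. Member lengths ran from 312 to 5499 bases with a median of 1533, beside 1338 for the filtered features. The median length was 1422 bases where wild type fell and 1578 where the others rose.

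Some members had consecutive serial numbers. They formed 14 runs with 30 members (10.6%), 2 runs of 3 and 12 of 2, and 4 of the 14 held a single class. The shares to be had by chance from a set of this size were not computed. PP7435_Chr1-1074 and PP7435_Chr1-1075 both fell in wild type, as did PP7435_Chr1-1469 and PP7435_Chr1-1470. The neighbours PP7435_Chr4-0738 and PP7435_Chr4-0739 rose in the other strains, as did PP7435_Chr3-0551 and PP7435_Chr3-0552. Of these features, PP7435_Chr1-1075, PP7435_Chr1-1469, PP7435_Chr1-1470, PP7435_Chr3-0551 and PP7435_Chr3-0552 did not meet the rule on the TMM scale. The other 10 runs mixed classes: PP7435_Chr1-0508, PP7435_Chr1-0509 and PP7435_Chr1-0510 were, in that order, a rise in the other strains, the remainder and a fall in wild type. Serial numbers were read as order along a chromosome, with no coordinates to check them.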

How the data were processed

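Per the file headers, each library came as a kallisto table in which the authors deposited estimated counts and TPM for 5341 features. The submitters' processing notes also name TopHat2, FastQC 0.11.2, Trim Galore 0.4.2, SAMtools and DESeq2, with no roles stated. No source used here gives a genome build. The deposited TPM entered no test. The 9 deposited tables of normalized values were not used, 3 of them being identical and 2 with decimal commas.

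CPM were estimated counts over the library sum. For edgeR 4.0.16 (R 4.3.3) the estimated counts were rounded, then fitted with TMM, filterByExpr and the quasi-likelihood test, and Benjamini-Hochberg adjustment at 0.05 over all features tested. Medium contrasts came from 1 fit of the 18 libraries, YPD strain contrasts from the 9 YPD libraries alone. The fits were tested on simulated data with known changes in a small part of the features. All other features had equal means in every group, and each medium had 1 common spread. The fit of the 18 libraries called 31% of 2-fold and 96% of 4-fold changes for wild type in acetate against YPD. In the real data 25.6% of tested features were called higher and 23.3% lower in that comparison. The adjusted threshold is then less strict, so the simulated rates are not those of the real fit. The YPD fit called 8% and 57% for a-type against wild type. DESeq2 1.42.0, other scalings, other limits of the rule and leaving out each library were alternatives. Depth was 234044 to 309362 counts per library in YPD and 637339 to 765524 in acetate.

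The members and the lists were chosen with earlier results of these data known. Named members were the 8 with the largest smaller ratio, the 4 with the highest heterothallic acetate level in each class, the 3 on each side of the limit, and runs of consecutive serials.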

Additional observations from a re-analysis of the deposited data

Results flagged for a closer look

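PP7435_Chr1-0884 differed in direction between strains: from YPD to acetate its mean CPM changed by -24.5 in wild type, with every acetate library below every YPD library, while every a-type and every α-type library was higher in acetate than in YPD. The difference between the strains was not tested.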

How the results depend on the processing

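The number of members moved with the scale and the limit: 83 with TMM-scaled CPM, 167 with upper-quartile scaling, 1027 at a ratio of 1.5, 23 at a ratio of 3, and from 246 to 469 when 1 acetate library was left out, the highest without wild-type replicate 1. Tested against a log2 fold change of 1, the calls among the 283 were 70 lower and 25 higher in wild type. They were 23 lower and 46 higher in a-type, and 27 lower and 53 higher in α-type. The classes were then 70 for wild type fell, 40 for the others rose and 173 for the remainder. Shares over all tested features are given for the main fit only. Counts under the alternatives therefore describe the members and are not set against a background. Leaving out 1 library gave 98 to 117 lower and 32 to 39 higher calls in wild type, 47 to 57 lower and 73 to 85 higher in a-type, 47 to 51 lower and 75 to 85 higher in α-type, 98 to 125 members in the class where wild type fell, 69 to 80 where the others rose and 80 to 107 in the remainder. Alternatives were run for 39 calls, those of the members with the largest ratios, of the most abundant of each class and of PP7435_Chr1-0884, not for members named only for the limit or for runs. Of their 507 alternative values 40 lost the call, 467 kept it and 0 reversed. Upper-quartile scaling moved the median of all tested features in wild type from 0.03 to -0.15 on the log2 scale and gave 135 lower and 32 higher calls among the members. The main fit had no term for pairs of YPD and acetate samples. Deviations of same-numbered YPD and acetate libraries correlated between -0.0947 and 0.0961, and those of differently numbered ones between -0.110 and 0.0932. With such like ranges, the values cannot show whether replicate numbers match cultures. With a replicate block the calls were 107 lower and 37 higher in wild type, 48 lower and 82 higher in a-type and 48 lower and 81 higher in α-type, and 0 in each YPD strain comparison. The block also lost 4 of the 39 calls: PP7435_Chr2-0821 in a-type (edgeR adjusted p = 0.0627), PP7435_Chr1-0374 in α-type (0.0601), and PP7435_Chr1-0884 in wild type (0.0959) and α-type (0.0648). YPD depth limits the strain comparison: 55 of the 283 members had too few counts to be tested there.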
